A study of Homo sapiens with 4 samples.

Results

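The genes described here are 44 ribosome biogenesis and nucleolar genes of the kind commonly counted among MYC targets, chosen by name and set beside MYC itself. The rule uses names alone, and the genes were proposed with earlier results of these data known. Of the 44, 43 were rows of the gene table, which holds 41507 genes, and the counts below are over these 43 genes. UTP4, a scaffold protein of the small subunit processome, was not listed by that name. Its older symbol CIRH1A was listed on chromosome 16, and its values are given apart. RNA was sequenced from SU-DHL-5 and Toledo, established human cell lines of diffuse large B-cell lymphoma (DLBCL), each treated with DMSO as the vehicle or with JQ1 at 1 µM for 6 h by the labels. JQ1 is a small molecule that displaces the bromodomain and extra-terminal (BET) proteins from acetylated chromatin. Both lines are labelled B lymphocyte, and each of the 4 conditions was 1 sample with 2 libraries.

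The 2 libraries of a sample differ in something that the sources used here do not name, so their spread may be technical only. With 1 sample per condition (n = 1), no test within a line was possible, and the p-values given come from 1 model over both lines. Levels are RPKM, the reads of a gene per kilobase of its length and scaled to the mapped reads of the library, as the authors deposited them. The libraries held 14617583 to 17679831 mapped reads, recovered from the steps between low RPKM values. All 6 B-cell markers examined were at 1 RPKM or more in all 8 libraries, while CD2, a T-cell marker, was at 0 in all 8. The 5 T-cell markers summed to 12.8 and 12.9 RPKM in the DMSO libraries of SU-DHL-5, to 4.89 and 5.10 RPKM in its JQ1 libraries and to at most 0.404 RPKM in Toledo. Fibroblast markers summed to at most 5.72 RPKM and myeloid markers to at most 1.35 RPKM, and epithelial markers were at 0 in all 8 libraries. The summed level of the B-cell markers was 884 to 999 RPKM in the DMSO libraries and 609 to 637 RPKM in the JQ1 libraries, and the part of these shifts in the results below was not tested. HEXIM1, a gene known to rise when BET proteins are inhibited, was at 4.35 and 3.89 RPKM with DMSO and 22.4 and 22.9 RPKM with JQ1 in SU-DHL-5, and at 4.04 and 3.94 RPKM with DMSO and 23.9 and 24.5 RPKM with JQ1 in Toledo. Both JQ1 samples therefore lay far above their DMSO sample for this gene, by 2.43 and 2.57 on the log2 scale.

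Ribosomes are built in the nucleolus, where RNA polymerase I transcribes the ribosomal RNA precursor. Small nucleolar ribonucleoproteins (snoRNPs) guide the chemical modification of this RNA, with box C/D particles directing methylation and box H/ACA particles directing pseudouridylation. The small subunit processome and a separate set of large subunit assembly factors then cut, fold and pack the precursor with ribosomal proteins. MYC is a transcription factor that binds the E-box CACGTG together with MAX, and it is known for raising the expression of many of these genes in proliferating B cells and lymphomas.

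With JQ1, the ribosome biogenesis genes were lower as a group by a modest amount in both lines. In SU-DHL-5 the median log2 ratio of JQ1 over DMSO was -0.35 over the 43 genes, against 0.02 over the 9094 genes at a mean of 1 RPKM or more in that line. In Toledo it was -0.28, against -0.06 over 9380 genes. All 43 genes were above 1 RPKM on average in both lines, so none was left out for a low level. The ratios were taken between the means of the 2 libraries with 0.1 RPKM added to each, which slightly understates the difference of low genes. The log2 ratio was below 0 for 42 of 43 genes in SU-DHL-5, for 37 in Toledo and for 37 in both lines, and it reached -0.96 in SU-DHL-5 against -1.12 in Toledo at most, both for GAR1. In these bulk samples, fewer cells of a type and less RNA per cell cannot be told apart, and a change in total RNA per cell is not seen in values scaled to the mapped reads.

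The size of the shift was small beside the usual fold thresholds. A gene was called lower where the JQ1 mean was lower by 1.5-fold or more and the libraries did not overlap, that is, the higher JQ1 library was still under the lower DMSO library. By this rule 7 of 43 genes (16.3%) were called lower in SU-DHL-5, where 12.1% of all genes were, and 9 of 43 (20.9%) in Toledo, where 15.8% were. In both lines 6 genes were called lower (14.0%), against 7.39% of the 8495 genes at 1 RPKM or more in both. None was called higher in either line, where 8.72% of all genes were in SU-DHL-5 against 6.68% in Toledo. At the study's cutoff, a ratio below 0.5, none was found in SU-DHL-5 (5.78% of all genes), GAR1 and BRIX1 were found in Toledo (4.65% of members, 7.15% of all genes) and none in both (2.67% of all genes). The shares called in a single line are near those of all genes. The count in SU-DHL-5 was 13 of 43 with library 1 alone, against 13.0% of all genes, and 4 of 43 with library 2 alone, against 11.7%. When JQ1 values were scaled by the median ratio of all genes, the count in Toledo was 5 of 43, against 13.8% of all genes. How the share of members stood to that of all genes thus depended on the library and the scaling.

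The separation of the libraries was more common than in all genes. The libraries were fully separated, with JQ1 under DMSO, for 38 of 43 genes in SU-DHL-5 (88.4%, against 38.0% of all genes) and for 28 in Toledo (65.1%, against 42.9%). All 28 of the Toledo genes were also among the 38 of SU-DHL-5, which is 65.1% of the members against 28.9% of all genes. Separation with JQ1 over DMSO was found for no member in SU-DHL-5 (42.3% of all genes) and for NPM1 and RRP1B in Toledo (4.65% of members, 29.7% of all genes). The libraries overlapped for 5 members in SU-DHL-5 (BOP1, NOC3L, NPM1, POLR1A and RRP1B) and for 13 in Toledo. Over all genes they overlapped for 1788 of 9094 in SU-DHL-5 and for 2578 of 9380 in Toledo. The difference between the conditions was also set against the larger of the gaps between the libraries of a sample. It was lower by more than this gap for 33 members (76.7%) in SU-DHL-5, where 34.2% of all genes were, and for 24 (55.8%) in Toledo, where 38.3% were. It was higher by more than the gap for no member in SU-DHL-5 (37.8% of all genes) and for NPM1 alone in Toledo (24.4%).

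A model over both lines was added after seeing the data. It fitted the 4 sample means of log2(RPKM + 0.1) with limma, with the cell line as a block, and so treats the lines as replicates of a shared response to JQ1. With an adjusted p under 0.05, 15 of 43 members (34.9%) were lower, against 14.0% of 8495 genes, and none was higher, against 10.2%. The 6 genes called in both lines were among the 15, and the others were PPAN, NOP16, NIP7, WDR12, PES1, DKC1, NHP2, UBTF and RRP9. GAR1 had the lowest limma adjusted p of the members (0.00247, mean log2 ratio -1.04, standard error 0.14) and RRP9 the highest of the 15 (0.0492, -0.45, standard error 0.14). For MYC the limma adjusted p was 0.55, with -0.13 and a standard error of 0.15. The fit has 1 residual degree of freedom, and most of its estimate of the spread comes from the other genes (6.59 prior degrees of freedom).

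Promoter windows from 250 bases before to 50 bases after each start site were taken from RefSeq (GRCh38.p14) and searched for CACGTG, which reads the same on both strands. Of the 44 named genes, UTP4 included, 37 had a promoter in the table, and 15 of these (40.5%) held CACGTG, against 8.77% of the 27305 genes with a promoter and 13.2% of the 7733 of them at 1 RPKM or more in either line. The related motif CACGCG, searched with its reverse complement CGCGTG, was also held by 15 of the 37 genes (40.5%), against 13.5% and 23.4%. Counted per promoter, CACGTG stood in 15 of 45 member promoters (33.3%) and in 7.26% of all 35116. The genes were chosen as a kind commonly counted among MYC targets, so their share with this motif is not independent of that choice. BOP1, DDX18, NOLC1, NOP58, RRP12, RRP1B and RRS1 had no promoter in the table. The 30 bases around the E-box are given here for the 3 genes with an E-box that were called lower in both lines, for PES1, lower in every library without reaching that call, and for NOC3L, whose libraries overlapped in both lines. CACGTG is in capitals and each sequence is read along the strand of its gene.
GAR1: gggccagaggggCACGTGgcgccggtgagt
MRTO4: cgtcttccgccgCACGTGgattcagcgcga
MYBBP1A: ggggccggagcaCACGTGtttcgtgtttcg
PES1: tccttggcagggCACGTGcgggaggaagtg
NOC3L: tagggacttcggCACGTGtgtcattccccg
The windows lie at chr4:109815781-109815810, plus strand for GAR1, chr1:19251807-19251836, plus strand for MRTO4, chr17:4555340-4555369, minus strand for MYBBP1A, chr22:30591880-30591909, minus strand for PES1 and chr10:94362903-94362932, minus strand for NOC3L. In these 5 genes the E-box lay 13 to 31 bases downstream of the start site. The letters flanking the E-box differ among the 5 genes, and the sequence is the reference, so it says nothing of binding in these cells.

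**Figure D1:**
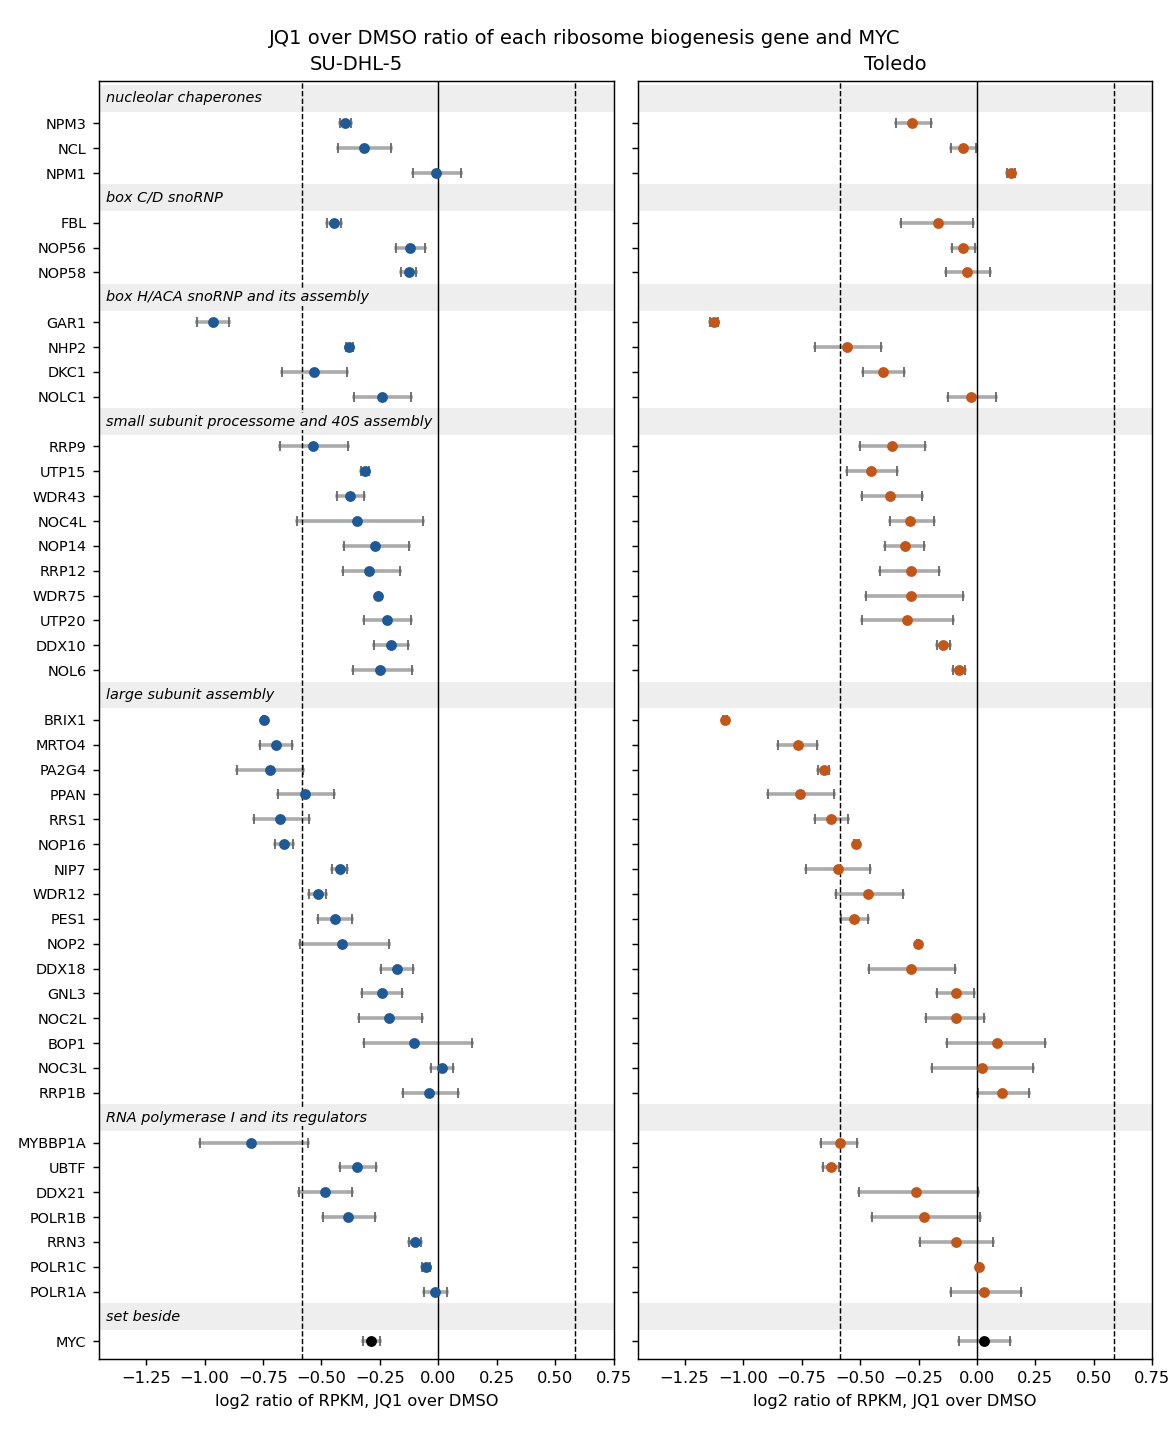
Log2 ratio of RPKM in JQ1 over DMSO (x axis) for each of the 43 members, grouped by role, and for MYC (black), in SU-DHL-5 (left) and Toledo (right). Points are ratios of the means, grey bars join the ratio of the libraries numbered 1 and the ratio of the libraries numbered 2, and dashed lines mark 1.5-fold. Most points lie left of 0 and right of the left dashed line, GAR1 and BRIX1 lie farthest left in Toledo, and NPM1, NOC3L and POLR1A lie near 0 in SU-DHL-5.

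The box H/ACA snoRNP held the gene with the lowest ratio of JQ1 over DMSO in both lines. Positions are on GRCh38, the build in the submitters' notes. GAR1 (chr4:109815510-109824737), a core protein of these particles and of telomerase, was at 48.5 and 47.3 RPKM with DMSO and 23.7 and 25.4 RPKM with JQ1 in SU-DHL-5. In Toledo it was at 64.0 and 65.6 RPKM with DMSO and 28.9 and 30.4 RPKM with JQ1. JQ1 levels were thus close to 0.5 times DMSO levels in both lines, with log2 ratios of -0.96 (95% interval -1.07 to -0.86) and -1.12 (-1.22 to -1.04). These intervals come from the reads recovered for each gene and cover counting error only. DKC1, the pseudouridine synthase of the same particle, was at 71.7 and 62.9 RPKM with DMSO and 45.1 and 47.9 RPKM with JQ1 in SU-DHL-5 and at 102 and 109 RPKM with DMSO and 82.0 and 77.6 RPKM with JQ1 in Toledo. NHP2, another core protein, was at 289.8 and 289 RPKM with DMSO and 220.1 and 224 RPKM with JQ1 in SU-DHL-5 and at 214 and 182 RPKM with DMSO and 132 and 137 RPKM with JQ1 in Toledo. Their log2 ratios were -0.53 and -0.40 for DKC1 and -0.38 and -0.56 for NHP2, and no libraries overlapped. NOP10, a further core protein that is not among the members, differed little, with -0.08 in SU-DHL-5 and 0.01 with overlapping libraries in Toledo. NOLC1, a nucleolar protein that helps to assemble snoRNPs, was lower in all libraries of SU-DHL-5 (-0.24) and overlapped in Toledo (-0.03, or 0.04 when centred on genes of like length).

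The large subunit assembly factors, 16 genes, held most of the other genes called. Their median log2 ratio was -0.43 in SU-DHL-5 against -0.49 in Toledo. All libraries were lower for 13 and 12 of the 16 genes, against 38.0% and 42.9% of all genes. BRIX1 (chr5:34915715-34925682), an early assembly factor of the large subunit, was at 53.5 and 54.7 RPKM with DMSO and 31.8 and 32.6 RPKM with JQ1 in SU-DHL-5 and at 76.3 and 78.6 RPKM with DMSO and 35.9 and 37.4 RPKM with JQ1 in Toledo. Its DMSO level was higher in Toledo and its JQ1 levels were closer in the 2 lines, with log2 ratios of -0.75 (-0.85 to -0.65) and -1.08 (-1.17 to -0.99). MRTO4 (chr1:19251581-19260128), which holds the place of the stalk protein in the precursor, was at 58.9 and 56.7 RPKM with DMSO and 34.7 and 36.8 RPKM with JQ1 in SU-DHL-5 and at 57.3 and 54.6 RPKM with DMSO and 31.8 and 33.9 RPKM with JQ1 in Toledo. The log2 ratios of MRTO4 were -0.69 and -0.77, with no overlap in either line. PA2G4 (chr12:56104319-56113910), a ribosome-associated protein linked to growth control, was at 224 and 199 RPKM with DMSO and 123 and 133 RPKM with JQ1 in SU-DHL-5 and at 240.2 and 244 RPKM with DMSO and 150.0 and 158 RPKM with JQ1 in Toledo. RRS1 (chr8:66429028-66430733), a factor of 5S particle loading, was at 36.2 and 30.8 RPKM with DMSO and 20.9 and 20.9 RPKM with JQ1 in SU-DHL-5 and at 21.8 and 24.5 RPKM with DMSO and 14.8 and 15.1 RPKM with JQ1 in Toledo. In both genes every JQ1 library lay well below every DMSO library of its line, with log2 ratios of -0.72 and -0.66 for PA2G4 and -0.68 and -0.63 for RRS1.

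Other large subunit factors lay on both sides of the 1.5-fold line. PPAN, a partner of early 60S assembly, was at 48.4 and 41.6 RPKM with DMSO and 30.02 and 30.6 RPKM with JQ1 in SU-DHL-5 and at 38.2 and 33.0 RPKM with DMSO and 20.5 and 21.5 RPKM with JQ1 in Toledo. Its log2 ratio was -0.57 in SU-DHL-5, just outside the call, and -0.76 in Toledo. NIP7, a factor of pre-rRNA processing, was called in Toledo (-0.60) and not in SU-DHL-5 (-0.42), and NOP16, another 60S assembly factor, was called in SU-DHL-5 (-0.66) and not in Toledo (-0.52). All libraries of these 3 genes were lower with JQ1 in both lines. PES1, BOP1 and WDR12 form 1 complex of 60S maturation, and their ratios differed. PES1 (-0.44 and -0.52) and WDR12 (-0.52 and -0.46) were lower in all libraries of both lines. BOP1 was at 76.7 and 57.1 RPKM with DMSO and 61.5 and 63.1 RPKM with JQ1 in SU-DHL-5 and at 168 and 148 RPKM with DMSO and 154 and 181 RPKM with JQ1 in Toledo, and its libraries overlapped in both lines. NOP2, an rRNA methyltransferase, was lower in all libraries of both lines (-0.41 and -0.25), and so was DDX18, an RNA helicase (-0.18 and -0.28). GNL3, a nucleolar GTPase also called nucleostemin, had log2 ratios of -0.24 and -0.09, and its libraries were separated in both lines. NOC2L, a 60S assembly factor, had -0.21 and -0.09, with overlap in Toledo. The Toledo ratios of both were above 0 (0.06 and 0.02) when every library was centred on genes of like length. NOC3L, the partner of NOC2L in pre-60S transport, was at 20.5 and 19.8 RPKM with DMSO and 20.1 and 20.6 RPKM with JQ1 in SU-DHL-5 and at 17.2 and 20.04 RPKM with DMSO and 20.2 and 17.5 RPKM with JQ1 in Toledo. It overlapped in both lines. RRP1B, a protein of rRNA processing, overlapped in SU-DHL-5 (-0.04) and was slightly higher in both JQ1 libraries of Toledo (0.11).

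**Figure D2:**
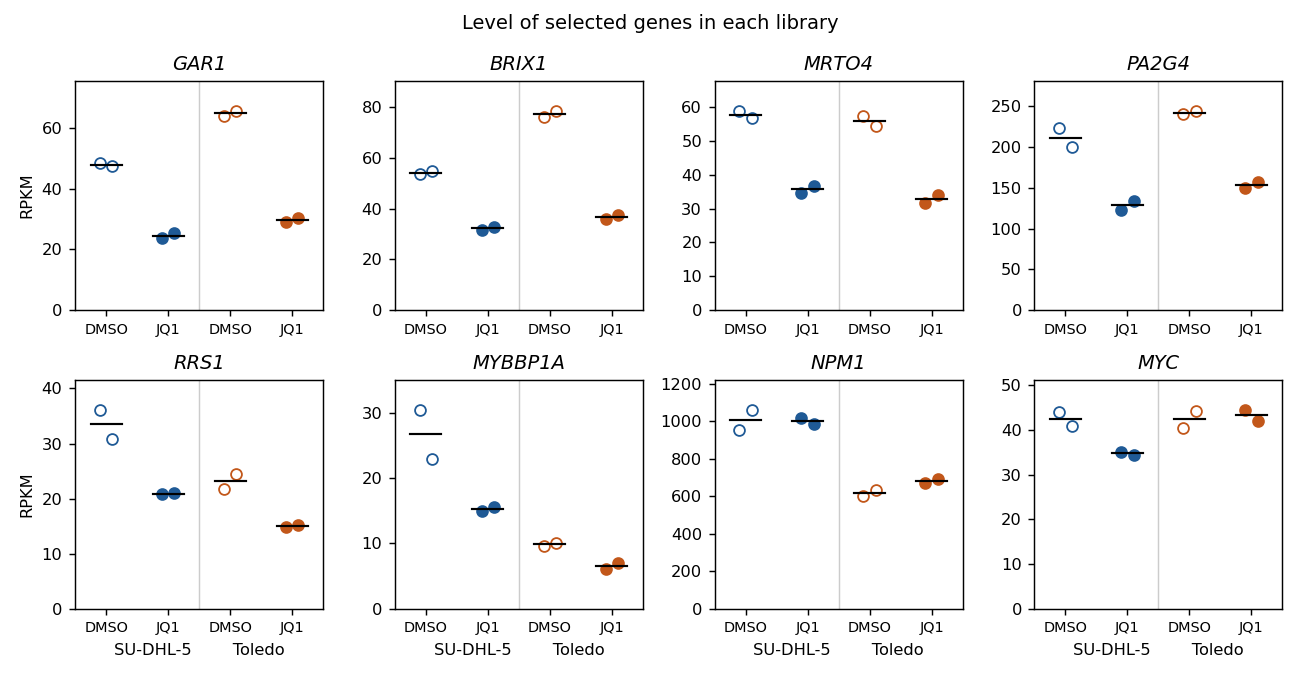
RPKM (y axis, from 0) of the 6 genes called lower in both lines, of NPM1 and of MYC, in each library of SU-DHL-5 (blue) and Toledo (orange). Open points are DMSO, filled points are JQ1, and black bars are the mean of the 2 libraries. In the 6 called genes the filled points lie below the open points of the same line, in NPM1 they overlap in SU-DHL-5, and in MYC they lie below in SU-DHL-5 and overlap in Toledo.

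The small subunit processome and 40S assembly genes were lower in nearly every case. All libraries were lower with JQ1 for 10 of 10 genes in SU-DHL-5 cells and 9 of 10 in Toledo. Over all genes, 38.0% and 42.9% were lower in this way. The medians of the 10 genes were -0.28 and -0.29, and none of them reached 1.5-fold. RRP9, the processome's U3 snoRNP protein, was at 41.9 and 36.1 RPKM with DMSO and 26.2 and 27.6 RPKM with JQ1 in SU-DHL-5 and at 44.7 and 38.5 RPKM with DMSO and 31.6 and 32.9 RPKM with JQ1 in Toledo. UTP15, of the complex that links the processome to transcription, was at 6.49 and 6.30 RPKM with DMSO and 5.26 and 4.98 RPKM with JQ1 in SU-DHL-5 and at 5.61 and 6.72 RPKM with DMSO and 4.40 and 4.54 RPKM with JQ1 in Toledo. Both were lower in every JQ1 library, with log2 ratios of -0.53 and -0.37 for RRP9 and -0.31 and -0.45 for UTP15. WDR43 and WDR75, partners of UTP15, had ratios of -0.38 and -0.37 and of -0.26 and -0.28. NOP14, NOC4L, RRP12, UTP20 and the helicase DDX10 ranged from -0.35 to -0.20 in SU-DHL-5 cells and from -0.31 to -0.14 in Toledo. NOL6 was the exception in Toledo, where its libraries overlapped (-0.08). CIRH1A, the listed name of UTP4, was at 44.7 and 38.3 RPKM with DMSO and 28.5 and 31.4 RPKM with JQ1 in SU-DHL-5 and at 40.6 and 43.6 RPKM with DMSO and 31.7 and 34.3 RPKM with JQ1 in Toledo. This gene was also lower in every JQ1 library, with log2 ratios of -0.47 and -0.35.

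Among the abundant nucleolar proteins and the box C/D snoRNP, FBL, NCL and NPM3 were lower in all libraries of SU-DHL-5, and FBL and NPM3 also in Toledo. NPM1, NCL and FBL together held 46.5% and 49.1% of the summed RPKM of the members in the DMSO libraries of SU-DHL-5 and 40.8% and 41.9% in those of Toledo. With JQ1 the shares were 51.7% and 51.1% in SU-DHL-5 against 46.6% and 47.8% in Toledo. FBL, the methyltransferase of box C/D particles, was at 369 and 371 RPKM with DMSO and 265 and 278 RPKM with JQ1 in SU-DHL-5 and at 447 and 414 RPKM with DMSO and 356 and 409 RPKM with JQ1 in Toledo. NCL, or nucleolin, was at 711 and 641 RPKM with DMSO and 528 and 557 RPKM with JQ1 in SU-DHL-5 and at 451 and 519 RPKM with DMSO and 450.0 and 480.5 RPKM with JQ1 in Toledo. Both were separated in SU-DHL-5, with log2 ratios of -0.45 and -0.32. In Toledo the ratios were -0.17 for FBL, again with no overlap, and -0.06 for NCL, with overlapping libraries. Both Toledo ratios were above 0 when every library was centred on genes of like length (0.03 and 0.06). NOP56 and NOP58, the scaffold pair of the same particles, showed log2 ratios of -0.12 and of -0.13 in SU-DHL-5 cells and of -0.06 and -0.04 in Toledo, where centring on length also turned the direction (0.04 and 0.06). NPM3, a histone-binding relative of NPM1, was lower in all libraries of both lines, with log2 ratios of -0.40 and -0.28.

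NPM1, nucleophosmin, was the most abundant member, with a log2 ratio of -0.01 in SU-DHL-5 and the highest ratio of the members in Toledo. It was at 951 and 1061 RPKM with DMSO and 1016 and 983 RPKM with JQ1 in SU-DHL-5, where the libraries overlapped, and at 599 and 631 RPKM with DMSO and 669.8 and 689 RPKM with JQ1 in Toledo, where both JQ1 libraries were higher and the log2 ratio was 0.14. The transcript table divided NPM1 into 5 transcripts, and the 2 most abundant differed in their ratios. The longer one, ending at position 171410884 of chromosome 5, was at 972 and 1129.8 RPKM with DMSO and 1126 and 1069 RPKM with JQ1 in SU-DHL-5 and at 662 and 694 RPKM with DMSO and 766 and 796 RPKM with JQ1 in Toledo. The shorter one, ending upstream at 171406727, was at 231 and 206 RPKM with DMSO and 152 and 169 RPKM with JQ1 in SU-DHL-5 and at 88.8 and 96.8 RPKM with DMSO and 73.7 and 68.6 RPKM with JQ1 in Toledo. Its log2 ratios were -0.44 and -0.38 with no overlap, against 0.06 and 0.20 for the longer one. How the authors divided reads between transcripts is not given in the sources used here, and transcripts of 1 gene share most of their bases. Of the 43 members, 18 had a single transcript in the table and 9 had 2 or more at 5 RPKM or more. In GAR1, both main transcripts were lower in every JQ1 library, with log2 ratios of -0.74 and of -1.71 in SU-DHL-5 cells and of -1.06 and -1.23 in Toledo.

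**Figure D3:**
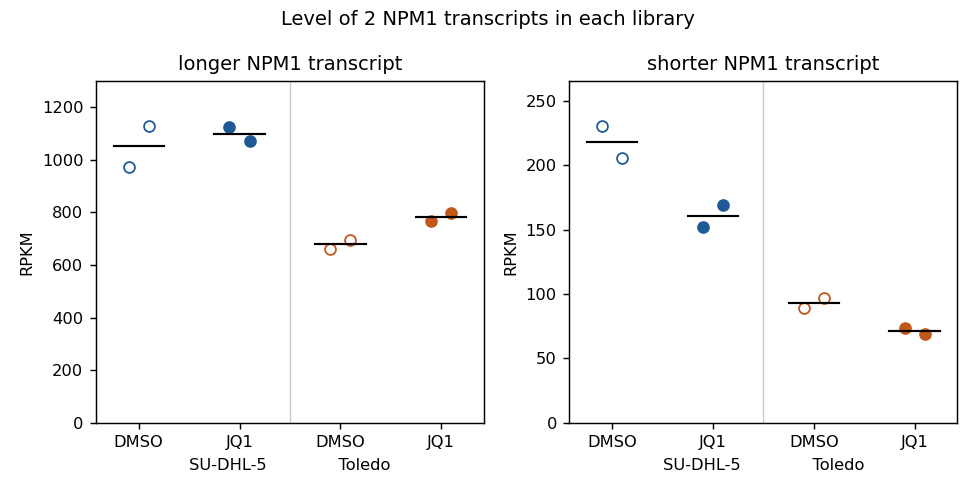
RPKM (y axes, from 0, with different ranges) of the longer (left) and the shorter (right) of the 2 most abundant NPM1 transcripts in each library of SU-DHL-5 (blue) and Toledo (orange). Open points are DMSO, filled points are JQ1, and black bars are means. The filled points of the shorter transcript lie below the open points in both lines, and those of the longer transcript lie above the open points in Toledo.

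The RNA polymerase I group was mixed. Among its subunits, POLR1A, the largest, was at 9.46 and 8.08 RPKM with DMSO and 9.05 and 8.29 RPKM with JQ1 in SU-DHL-5 and at 7.12 and 8.74 RPKM with DMSO and 8.12 and 8.09 RPKM with JQ1 in Toledo. POLR1B, the next in size, was at 13.5 and 11.7 RPKM with DMSO and 9.58 and 9.69 RPKM with JQ1 in SU-DHL-5 and at 11.4 and 14.4 RPKM with DMSO and 11.5 and 10.5 RPKM with JQ1 in Toledo. POLR1A thus overlapped in both lines, and POLR1B was separated in SU-DHL-5 (-0.39) and overlapped in Toledo (-0.23). POLR1C, a subunit shared with RNA polymerase III, had ratios of -0.05 and 0.01, and RRN3, the factor that brings the polymerase to its promoter, of -0.10 and -0.09. UBTF, which binds and opens ribosomal DNA, was at 43.9 and 39.1 RPKM with DMSO and 32.7 and 32.4 RPKM with JQ1 in SU-DHL-5 and at 44.4 and 50.3 RPKM with DMSO and 29.5 and 31.9 RPKM with JQ1 in Toledo. Its log2 ratio was -0.35 in SU-DHL-5 against -0.62 in Toledo, where it was called lower. MYBBP1A (chr17:4538896-4555626), a nucleolar protein that binds transcription factors and acts in rRNA synthesis, was at 30.5 and 22.9 RPKM with DMSO and 15.0 and 15.6 RPKM with JQ1 in SU-DHL-5 and at 9.60 and 10.1 RPKM with DMSO and 6.01 and 7.06 RPKM with JQ1 in Toledo. It was called in both lines (-0.80 and -0.59), although its DMSO libraries in SU-DHL-5 were far apart and its Toledo ratio lay at the edge of the call. DDX21, a helicase that coordinates rRNA transcription and processing, had log2 ratios of -0.48 with all libraries lower in SU-DHL-5 and of -0.26 with overlapping libraries in Toledo.

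MYC itself was lower with JQ1 in SU-DHL-5 and overlapped in Toledo, a difference that could not be tested across samples. In SU-DHL-5 it was at 44.1 and 40.9 RPKM with DMSO and 35.2 and 34.4 RPKM with JQ1, and in Toledo at 40.4 and 44.4 RPKM with DMSO and 44.6 and 42.1 RPKM with JQ1. The SU-DHL-5 libraries were separated with JQ1 under DMSO, with a log2 ratio of -0.29 (-0.36 to -0.21), and the Toledo libraries overlapped, with 0.03 (-0.04 to 0.10). The MYC ratio was 0.32 (0.22 to 0.42) higher in Toledo than in SU-DHL-5 on the log2 scale, with an interval for counting error only. The members' median was -0.35 beside MYC's -0.29 in SU-DHL-5, and -0.28 beside 0.03 in Toledo. In Toledo, 28 members (65.1%) had all libraries lower with JQ1, against 42.9% of all genes, and the MYC libraries overlapped between the conditions. This overlap rests on 1 sample per condition and does not show that MYC was unchanged in Toledo. MYC protein was not measured in these data. The paper reports lower MYC mRNA, by qPCR, and lower MYC protein in inhibitor-treated cells of every line it examined, Toledo among them. Its protein blots followed a longer incubation than the 6 h labelled here, and its qPCR covered time periods shown only in its figure. Why the Toledo RPKM values differ from that qPCR result was not tested. Of the 43 members, 14 had a promoter with CACGTG, and their median was -0.43 in SU-DHL-5 against -0.30 in Toledo, beside -0.35 and -0.28 for the 22 whose promoter lacked it. In SU-DHL-5, 3 of 14 genes with the motif and 3 of 22 without it were called lower, against 12.1% of all genes. In Toledo, 3 of 14 and 5 of 22 were, against 15.8% of all genes. The ratios ranged from -0.96 to 0.01 with the motif and from -0.75 to -0.01 without it in SU-DHL-5. In Toledo they ranged from -1.12 to 0.02 and from -1.08 to 0.14.

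**Figure D4:**
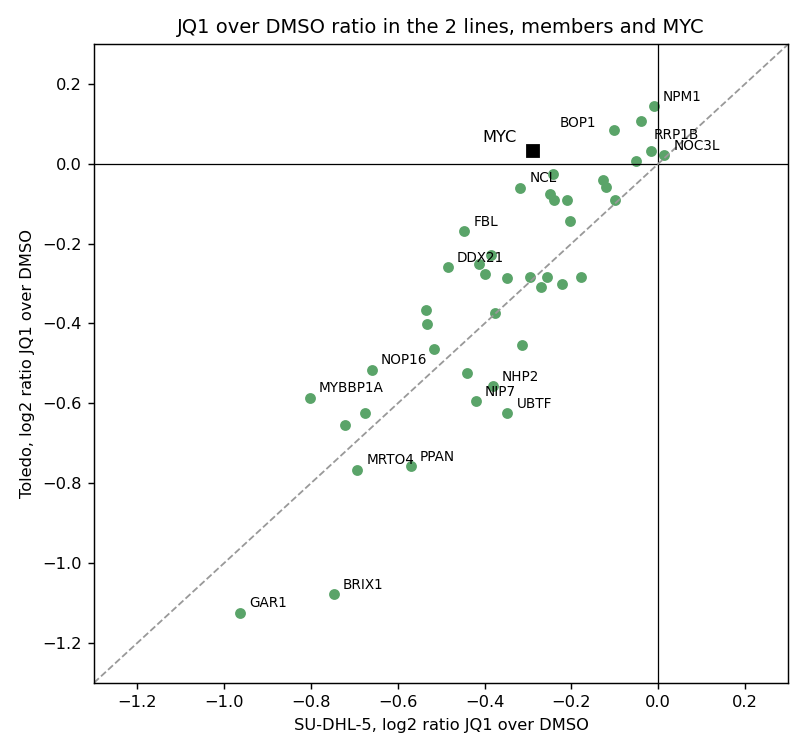
Log2 ratio of JQ1 over DMSO in SU-DHL-5 (x axis) and Toledo (y axis) for the 43 members (green points) and MYC (black square), with the line of equal ratios dashed. 37 members lie in the lower left part with ratios below 0 in both lines, and MYC lies above 0 in Toledo and below 0 in SU-DHL-5.

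The difference between the lines was computed for each member from the recovered reads. Its 95% interval excluded 0 for 26 of 43 members (60.5%), near the 57.3% of 8495 genes, and included 0 for 17. Of the 26, 8 had the lower ratio in Toledo and 18 in SU-DHL-5, while over all genes 3371 and 1495 did. BRIX1, at -0.33 (-0.46 to -0.20), and UBTF, at -0.28 (-0.35 to -0.20), were lower in Toledo by the widest margins. FBL, at 0.28 (0.23 to 0.33), and NCL, at 0.26 (0.23 to 0.29), were lower in SU-DHL-5 by the widest margins. These intervals hold counting error only, and the 2 libraries of a sample differed by up to 0.42 on the log2 scale for a member (BOP1 with DMSO in SU-DHL-5). Whether a member responds differently in the 2 lines could not be tested with 1 sample per condition.

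A wider list of 96 other ribosome biogenesis genes gave a smaller difference in the same direction. Its median was -0.19 over the 95 genes at 1 RPKM or more in SU-DHL-5 and -0.20 over 94 in Toledo. All libraries were lower with JQ1 for 65 of these genes (68.4%) in SU-DHL-5 cells and 55 (58.5%) in Toledo. Over all genes the shares were 38.0% and 42.9%. In each line 8 genes of the list were called lower (8.42% and 8.51%, against 12.1% and 15.8% of all genes). Genes with all libraries higher numbered 11 (11.6%) and 13 (13.8%), against 42.3% and 29.7% of all genes. None was called higher, against 8.72% and 6.68% of all genes. Of the 5 genes with the lowest mean ratio among those at 1 RPKM or more in both lines, DIEXF (now UTP25), a small subunit factor, was at 3.28 and 3.29 RPKM with DMSO and 1.42 and 1.48 RPKM with JQ1 in SU-DHL-5 and at 7.35 and 8.85 RPKM with DMSO and 3.83 and 3.27 RPKM with JQ1 in Toledo. ZNRD1 (now POLR1H), a small subunit of RNA polymerase I, was at 61.9 and 61.0 RPKM with DMSO and 29.4 and 27.7 RPKM with JQ1 in SU-DHL-5 and at 60.2 and 48.8 RPKM with DMSO and 31.2 and 29.4 RPKM with JQ1 in Toledo. Both genes and NOL12 (-0.78 and -1.33), which acts in rRNA processing, were called lower in both lines. LTV1, a 40S export factor (-0.44 and -1.01), was called in Toledo, and WDR46, a processome protein (-0.73 and -0.58), in SU-DHL-5. Among the genes at 1 RPKM or more in both lines, the 5 highest were BMS1, the GTPase of the processome (0.33 and 0.37), DIMT1, an rRNA methyltransferase (0.25 and 0.33), LSG1, a late 60S GTPase (0.29 and 0.17), RPF1, a large subunit factor (0.08 and 0.30) and UTP3, a processome protein (0.03 and 0.31). UTP3 overlapped in SU-DHL-5, and the others were higher with JQ1 in every library of both lines.

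Genes of the ribosomal proteins themselves were compared in the same way. Over 79 cytosolic ribosomal protein genes the median log2 ratio was -0.01 in SU-DHL-5 against 0.15 in Toledo, and none was called in either direction. All libraries were lower for 22 of them (27.8%) in SU-DHL-5 and for none in Toledo, against 38.0% and 42.9% of all genes, and all were higher for 15 (19.0%) and for 42 (53.2%), against 42.3% and 29.7%. Over 76 mitochondrial ribosomal protein genes the median was -0.15 and -0.31. All libraries were lower for 46 (60.5%) and 63 (82.9%) of them, against 38.0% and 42.9% of all genes. In this list 9 (11.8%) and 17 (22.4%) were called lower, against 12.1% and 15.8% of all genes. In Toledo, the mitochondrial list lay at about the level of the members, and in SU-DHL-5 it lay nearer to 0. These lists were compared by their counts and medians alone, with no test.

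**Figure D5:**
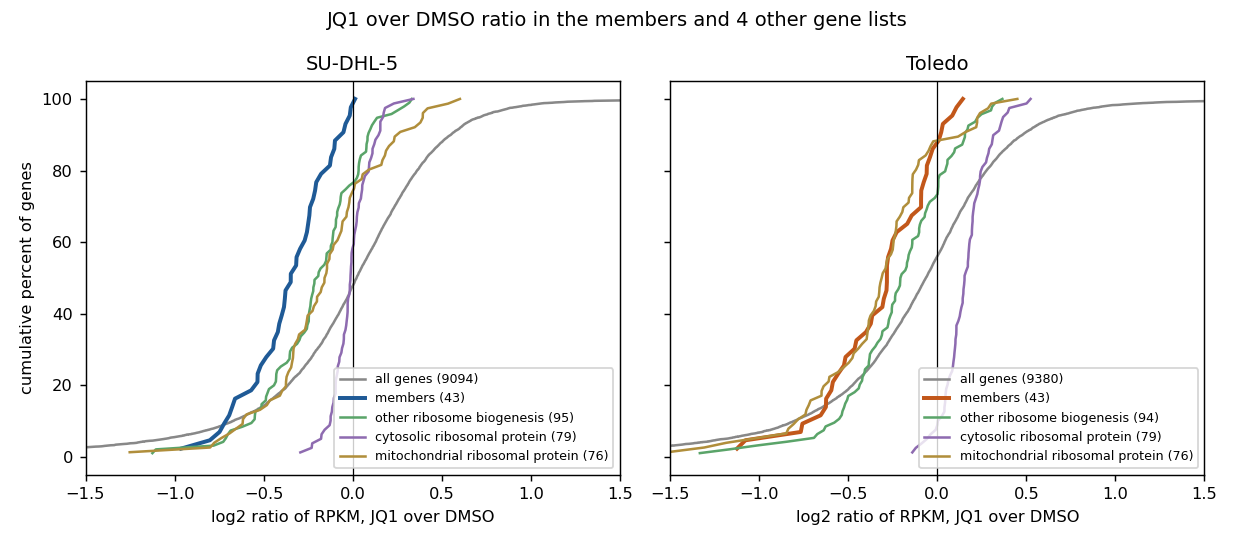
Cumulative percent of genes (y axis) against the log2 ratio of JQ1 over DMSO (x axis, cropped at -1.5 and 1.5) for all genes at 1 RPKM or more, the members, the other ribosome biogenesis genes and the cytosolic and mitochondrial ribosomal protein genes, with the number of genes in brackets. The curve of the members lies left of that of all genes at the median in both lines (-0.35 and -0.28 against 0.02 and -0.06), and the cytosolic ribosomal protein curve lies right of it in Toledo (0.15).

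Members also took a smaller part of each library with JQ1. Their reads were 0.997% and 0.942% of the mapped reads in the DMSO libraries of SU-DHL-5 and 0.787% and 0.803% in the JQ1 libraries. In Toledo they were 0.817% and 0.859% with DMSO and 0.722% and 0.748% with JQ1. The shares did not overlap in either line. Between genes the levels spanned a wide range, from 6.39 RPKM for UTP15 to 1006 RPKM for NPM1 as means of the DMSO libraries of SU-DHL-5, and from 4.51 RPKM for UTP20 to 615 RPKM for NPM1 in Toledo.

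Without JQ1, the libraries of the 2 lines were separated for most members, while few differed by 1.5-fold. Both DMSO libraries of Toledo were under both of SU-DHL-5 for 21 members (48.8%) and over both for 10 (23.3%), against 42.3% and 42.2% of all genes. In Toledo with DMSO, 4 members were called lower than in SU-DHL-5 with DMSO and 2 were called higher, which is 9.30% and 4.65% of members against 23.7% and 25.5% of 9630 genes. MYBBP1A had the lowest log2 ratio of Toledo over SU-DHL-5 (-1.43), from 30.5 and 22.9 RPKM in SU-DHL-5 and 9.60 and 10.1 RPKM in Toledo. WDR75 (-0.97), WDR12 (-0.74) and NPM1 (-0.71) were the others called lower. BOP1 was the highest (1.24), from 76.7 and 57.1 RPKM in SU-DHL-5 and 168 and 148 RPKM in Toledo, and DKC1 followed (0.65). MYC was at 44.1 and 40.9 RPKM in SU-DHL-5 and 40.4 and 44.4 RPKM in Toledo, and these libraries overlapped. These ratios share the DMSO samples with the JQ1 ratios above.

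Library effects touched some of these values. In Toledo, DMSO library 2 over library 1 gave log2 ratios that rose with gene length (Spearman's rho 0.62 over 9380 genes, a description of 2 libraries), and between the DMSO libraries of SU-DHL-5 rho was -0.09. The members were shorter than all genes, with a median length of 2717 against 3306.5 bases. When every library was centred on genes of like length, the median of the members was -0.35 in SU-DHL-5 against -0.23 in Toledo. All libraries were then lower for 37 and 24 of the 43 members, against 39.9% and 39.3% of all genes. Calls at 1.5-fold in both lines then numbered 3 (BRIX1, GAR1 and MRTO4), and with library 2 alone also 3. The share of all genes called in both lines was not computed for these settings. Several members overlap another gene, and strand-aware counting is not given in the sources used here. NIP7 overlaps COG8 (up to 17.8 RPKM), POLR1C overlaps XPO5 (23.9), RRN3 overlaps PDXDC1 (15.7), GNL3 overlaps GLT8D1 (9.45) and PPAN overlaps the PPAN-P2RY11 readthrough (1.22). NPM1 has 49 numbered pseudogene rows and PA2G4 and DDX18 have 6 each, all listed at 0, and how reads shared with them were placed is not given either.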

How the data were processed

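SU-DHL-5 and Toledo were each cultured with DMSO or JQ1, and mRNA libraries of a stranded kit were sequenced with paired reads. Treatment lasted 6 h by the labels, while the paper's figure legend gives 8 h. Samples were grouped by their titles, which write JQ1 as JO1. The deposited RPKM values, listed for genes and for transcripts, were scaled by the authors to feature length and to the mapped reads of each library. The submitters' processing notes name CASAVA 2.0 and the builds GRCh38 and hg38, and the aligner, the counting and the annotation are not given in the sources used here. File starts count from 0 and are printed counted from 1. The analysis began from these values.

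Libraries 1 and 2 of a sample were averaged and counted as 1 sample (n = 1 per condition), so no test was made within a line. Over both lines, limma 3.58.1 fitted the sample means of log2(RPKM + 0.1) with line and treatment as terms, with Benjamini-Hochberg adjustment over genes at 1 RPKM or more in both lines. Ratios of JQ1 over DMSO are on the log2 scale after adding 0.1 RPKM to both means, and genes of at least 1 RPKM on average over the 4 libraries of a comparison formed the background. Mapped reads per library (median 16252335) and reads per gene were recovered from the steps between RPKM values, which gave whole reads in all libraries for 14942 of 14944 genes with a value, within 0.2 reads. Intervals are exact binomial, at 95%, from the pooled reads and cover counting error only. Motifs were searched in RefSeq promoters (GRCh38.p14), matched by symbol. The members and lists were chosen with earlier results of these data known. Named genes were all members, MYC and HEXIM1, and the 5 lowest and 5 highest genes of the wider list by the mean log2 ratio of both lines, among those at 1 RPKM or more in both. NOP10 of the wider list was added beside the other core proteins of its particle. The alternatives varied the pseudocount, scaling, length correction, library, table, cutoff and filter on low values. Software was matplotlib 3.10.9, scipy 1.17.1, pandas 2.3.3 and numpy 2.4.6 under Python 3.11.15, with R 4.3.3.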

Additional observations from a re-analysis of the deposited data

How the results depend on the processing

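With the line as a replicate block, limma called 15 members lower over both lines, a fit added after seeing the data. No source links libraries of different samples, so libraries were not paired in this fit or in the main ratios. The settings with 1 library alone set JQ1 against DMSO of the same library number, which is an arbitrary match. The spread of the libraries used below comes from the same match. The median log2 ratio of the members in SU-DHL-5 stayed from -0.40 to -0.25 under all alternatives. In Toledo it was -0.28, and it was -0.27 with 1 RPKM as the pseudocount, -0.22 with JQ1 values scaled by the median ratio of all genes, -0.23 centred on length, -0.26 with library 1 alone and -0.25 with library 2 alone. Over the 5 settings that keep both libraries, 405 of 430 ratios of single members stayed within the spread of the libraries or the counting interval, 25 moved beyond both and none of the called ratios changed sign. In Toledo, ratios that were not called turned above 0 when scaled or centred on length for 7 members (FBL, GNL3, NCL, NOC2L, NOLC1, NOP56 and NOP58). In SU-DHL-5 NPM1 became 0.06 when centred on length and NOC3L -0.01 when scaled.

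The count of members called lower moved more, and the cause was not tested. In SU-DHL-5 it was 7 of 43, against 12.1% of all genes. It was 13 with library 1 alone, against 13.0%, and 4 with library 2 alone, against 11.7%. In Toledo it was 9, against 15.8% of all genes. It was 5 both when scaled, against 13.8%, and when centred on length, against 13.5%. In both lines it was 6, against 7.39% of all genes. It was 3 when centred on length or with library 2 alone. When scaled it was 5, with PPAN called and MYBBP1A and RRS1 not called. The share of all genes in both lines was not computed for these settings. At a ratio below 0.5 the counts were 0, 2 and 0 in SU-DHL-5, Toledo and both lines, and with no minimum fold 38, 28 and 28. Raising the filter on low values to 10 RPKM moved no count beyond 1.5 times. Dropping the filter could not change a count, because every member passed it. The ratio of MYC ranged from -0.32 to -0.23 in SU-DHL-5, and in Toledo from -0.08 to 0.15, where its direction depended on the library.

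Alternatives for the counts of members with all JQ1 libraries lower were added after seeing the data. When scaled, when centred on length or from transcript sums, these counts were 37 or 38 of 43 in SU-DHL-5, against 37.8% to 40.1% of all genes. In Toledo they were 24 or 28, against 37.6% to 42.8%. In both lines they were also 24 or 28, where the share of all genes was not computed. With 1 sample per condition no result within a line has a replicate check. Depth limits the lowest member, UTP15, to 738 reads over the 2 libraries of Toledo with JQ1.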
